A study of Mus musculus with 23 samples.

Results

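The 47 genes described here encode the machinery of mitosis: chromosome proteins, kinesin motors, kinetochore and checkpoint proteins, cyclins and their partners, spindle proteins, cytokinesis proteins and 1 transcription factor. They were chosen with earlier results of these data known and taken by symbol from a table of 39179 genes. Each of the 47 had 1 row there. The table came from total RNA sequencing of mesenteric arteries, the resistance vessels that feed the gut, from wild-type male C57BL/6J mice that were 10 to 12 weeks old when treatment began. The 4 groups were mice infused under the skin with angiotensin II (Ang II), a peptide hormone that constricts arteries and raises blood pressure, at 1000 ng/kg/min from an osmotic minipump for 7 days (6 libraries), sham-operated mice at 7 days (6 libraries), mice with the same infusion for 14 days (5 libraries) and sham-operated mice at 14 days (6 libraries). Sham mice are described as having had surgery, and no vehicle infusion is named for them. All mice shared strain, sex and genotype, and each library came from its own animal, per the animal numbers in the table header.

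A dividing cell condenses its chromosomes, builds a bipolar spindle of microtubules, attaches each chromosome to it through a kinetochore, waits for a checkpoint to see all attachments made, and then separates the chromatids and pinches the cell in a cleavage furrow. Most of the proteins involved are made only in the late part of the cell cycle, in G2 and M, so their transcripts are scarce in a resting tissue. In the adult artery smooth muscle and endothelial cells divide rarely, and Ang II is a known growth stimulus for vascular cells. Transcription of these genes is held down in resting cells by the DREAM complex and raised in G2 and M by the MuvB core with B-MYB and FOXM1, through a promoter element named the CHR (cell cycle genes homology region), often beside boxes bound by the factor NF-Y. DNA replication genes, which act in S phase, instead depend mainly on E2F elements.

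Promoter windows were examined as a description only, and a link of their elements to the changes below was not tested. The windows run from 250 bases before to 50 bases after the annotated start and come from RefSeq on GRCm38.p6. They were found for 41 of the 47 genes, in 43 windows. Ect2 and Prc1 have 2 overlapping windows each. For each role the tested gene with a CHR core and the largest 7-day fold change was taken, and shown are the 6 of these with the largest fold changes, which leaves out the passenger complex and the genes of mitotic entry and exit, 5′ to 3′ on the gene's own strand. Capitals mark the CHR core (TTTGAA or TTCGAA, read on either strand) and the NF-Y box (CCAAT, read on either strand). The Mki67 window is chr7:135716330-135716629, Kif18b is chr11:102925075-102925374, Cenpf is chr1:189688037-189688336, Bub1 is chr2:127831810-127832109 and Ckap2l is chr2:129297163-129297462, all on the minus strand. The Iqgap3 window is chr3:88081801-88082100 on the plus strand.
Mki67: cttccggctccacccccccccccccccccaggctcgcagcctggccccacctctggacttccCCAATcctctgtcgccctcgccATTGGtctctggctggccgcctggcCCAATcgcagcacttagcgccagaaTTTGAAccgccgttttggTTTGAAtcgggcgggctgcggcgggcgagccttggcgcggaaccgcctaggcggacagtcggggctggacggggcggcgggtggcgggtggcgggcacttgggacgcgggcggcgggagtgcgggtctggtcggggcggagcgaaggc
Kif18b: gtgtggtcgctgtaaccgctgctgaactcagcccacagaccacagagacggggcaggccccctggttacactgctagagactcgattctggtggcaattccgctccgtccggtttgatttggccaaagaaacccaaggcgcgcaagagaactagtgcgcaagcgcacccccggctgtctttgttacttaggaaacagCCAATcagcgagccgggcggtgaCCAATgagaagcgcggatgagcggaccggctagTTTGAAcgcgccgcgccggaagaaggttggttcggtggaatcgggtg
Cenpf: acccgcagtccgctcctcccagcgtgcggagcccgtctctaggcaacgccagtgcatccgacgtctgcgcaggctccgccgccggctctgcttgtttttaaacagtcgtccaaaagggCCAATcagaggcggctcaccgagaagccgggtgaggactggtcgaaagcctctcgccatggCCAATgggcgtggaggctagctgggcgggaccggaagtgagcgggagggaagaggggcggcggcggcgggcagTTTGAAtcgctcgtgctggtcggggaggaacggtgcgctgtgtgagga
Bub1: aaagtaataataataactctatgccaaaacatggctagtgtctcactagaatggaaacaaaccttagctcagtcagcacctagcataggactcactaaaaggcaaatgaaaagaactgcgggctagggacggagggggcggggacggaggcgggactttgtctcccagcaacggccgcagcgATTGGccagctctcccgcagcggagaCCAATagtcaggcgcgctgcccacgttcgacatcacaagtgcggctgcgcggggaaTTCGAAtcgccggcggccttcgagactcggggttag
Ckap2l: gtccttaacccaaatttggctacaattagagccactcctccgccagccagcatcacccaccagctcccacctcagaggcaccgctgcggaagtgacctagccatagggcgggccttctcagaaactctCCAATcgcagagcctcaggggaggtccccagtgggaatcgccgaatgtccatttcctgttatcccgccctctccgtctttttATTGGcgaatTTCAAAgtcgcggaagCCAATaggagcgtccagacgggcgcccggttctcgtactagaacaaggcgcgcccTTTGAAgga
Iqgap3: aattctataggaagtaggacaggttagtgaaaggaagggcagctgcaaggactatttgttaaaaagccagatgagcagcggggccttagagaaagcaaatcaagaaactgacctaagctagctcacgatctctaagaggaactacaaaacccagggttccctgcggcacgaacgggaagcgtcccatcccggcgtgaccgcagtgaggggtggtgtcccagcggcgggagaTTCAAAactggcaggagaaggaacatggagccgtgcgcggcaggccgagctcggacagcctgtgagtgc

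Except in Mki67, the CHR core of the windows shown lay close to the start. Counted from the first transcribed base as 0, its first base was at 3 in Kif18b, at 2 in Cenpf, at 14 in Bub1, at 41 and -30 in Ckap2l, at -19 in Iqgap3 and at -116 and -98 in Mki67. The NF-Y boxes stood upstream of it in Kif18b (-53 and -30), Cenpf (-132 and -71), Bub1 (-68 and -42) and Mki67 (-188, -166 and -141). In Ckap2l the boxes were at -122, -40 and -14, and the last of these lay downstream of the core at -30. Iqgap3 had none in the window. Counting a site in overlapping windows once, the 43 windows held 45 CHR matches, of which 32 lay between -60 and 50. A CHR core was in 81.4% of the windows of mitosis and spindle genes, against 17.5% of the windows of a list of DNA replication genes, 13.8% of the windows of all genes tested and 19.2% of all windows in the table. The NF-Y box was in 76.7%, against 62.5%, 36.8% and 37.4% in the same order, and both elements were in 69.8%, against 5.54% for all genes tested. An E2F element (the letters TTGGCGC, also searched as TTCGCGC, further as TTCCCGC and lastly as TTGCCGC, on either strand) was in 16.3%, against 70.0% of the DNA replication windows and 15.6% of those of all genes tested. The reverse of the NF-Y box, ATTGG, can share letters with the E2F element TTGGCGC. A match describes the letters of these windows and says nothing of binding. The median 7-day log2 fold change was 0.92 over the 31 tested genes with a CHR core, of which 14 were called, and 0.98 over the 8 genes with a window lacking it, of which 2 were called. On the gene's own strand alone the CHR core was in 65.1% of the windows of mitosis and spindle genes, against 8.55% of those of all genes tested.

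**Figure D1:**
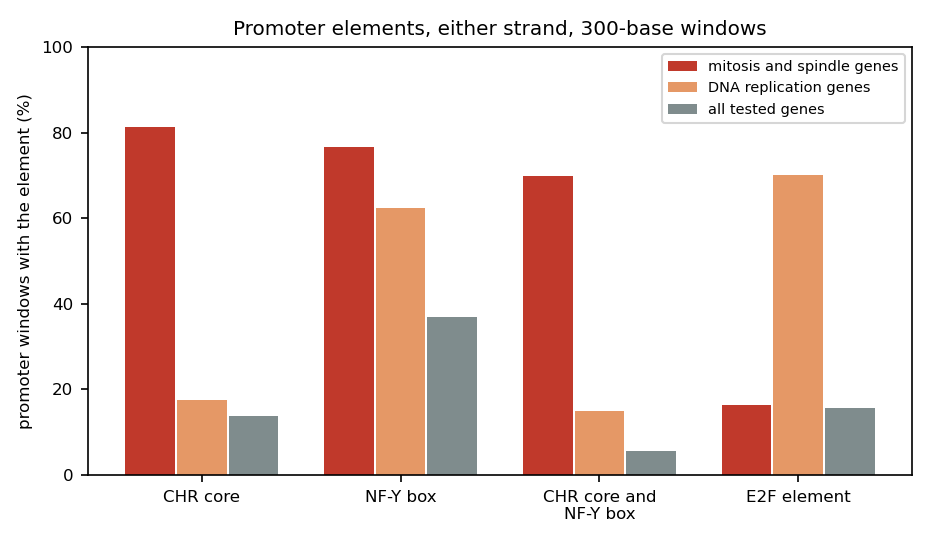
Share of promoter windows, in percent, that hold each element on either strand, for the windows of the mitosis and spindle genes (43 windows), of the DNA replication list and of all genes tested. The CHR core was in 81.4% of the first set and in 17.5% of the second, and the E2F element was in 16.3% of the first and 70.0% of the second.

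The values are the authors' normalised signal, in which each gene's read count was divided by a factor for its library, and they are not per length. How that factor was set is not given in the sources used here, and the counts of calls at 14 days changed with the scaling, as given below. Depth recovered from the table was 4471038 to 21509283 reads per library, and ran from 8670036 in Ang II arteries and from 4471038 in sham arteries at 7 days, and from 15507654 in Ang II arteries and from 8807407 in sham arteries at 14 days. The 47 genes together took 367 to 5917 reads per library, and a single read was worth 0.0375 to 0.326 on the authors' scale, so the lowest values below stand for a few reads. Read totals of groups given below are not corrected for depth. Median depth was 13894240 reads in Ang II and 7201545.5 in sham libraries at 7 days. At 14 days it was 18322122 in Ang II (5 libraries) and 14400312.5 in sham (6 libraries). All 8 smooth muscle markers and all 8 endothelial markers were above 0 in every library, as the tissue label implies. Markers of pancreatic acinar cells were high in every library, at a summed signal of 43357 to 188699. In a bulk sample a higher level can come from more dividing cells or from more RNA per cell, and these cannot be told apart. The strand setting of the counting is not given in the sources used here, so genes that overlap an exon of another gene on the opposite strand carry that uncertainty. Fold changes are on log2(value + 0.5), which understates the change of low genes, and a gene is called at a limma adjusted p under 0.05 over 14896 genes tested.

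Mitosis and spindle transcripts were more abundant in Ang II arteries than in sham arteries at both times. Their summed signal was 225 ± 44.1 in Ang II arteries (SD, n = 6) and 107 ± 19.2 in sham arteries (n = 6) at 7 days, and 207 ± 51.3 in Ang II arteries (n = 5) and 115 ± 4.15 in sham arteries (n = 6) at 14 days. The ratio of the means was 2.10 at 7 days and 1.804 at 14 days. The groups did not overlap at either time: the lowest Ang II library was at 151 and the highest sham library at 120 at 7 days, and the lowest was at 145 against a highest of 120 at 14 days. Genes with long transcripts, Mki67, Top2a and Anln, made up 31.4% to 34.4% of the sum in Ang II libraries at 7 days. The other 44 genes summed to 99.8 to 181 in Ang II arteries against 51.1 to 87.3 in sham arteries at 7 days, and to 97.7 to 184 against 74.6 to 81.4 at 14 days.

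**Figure D2:**
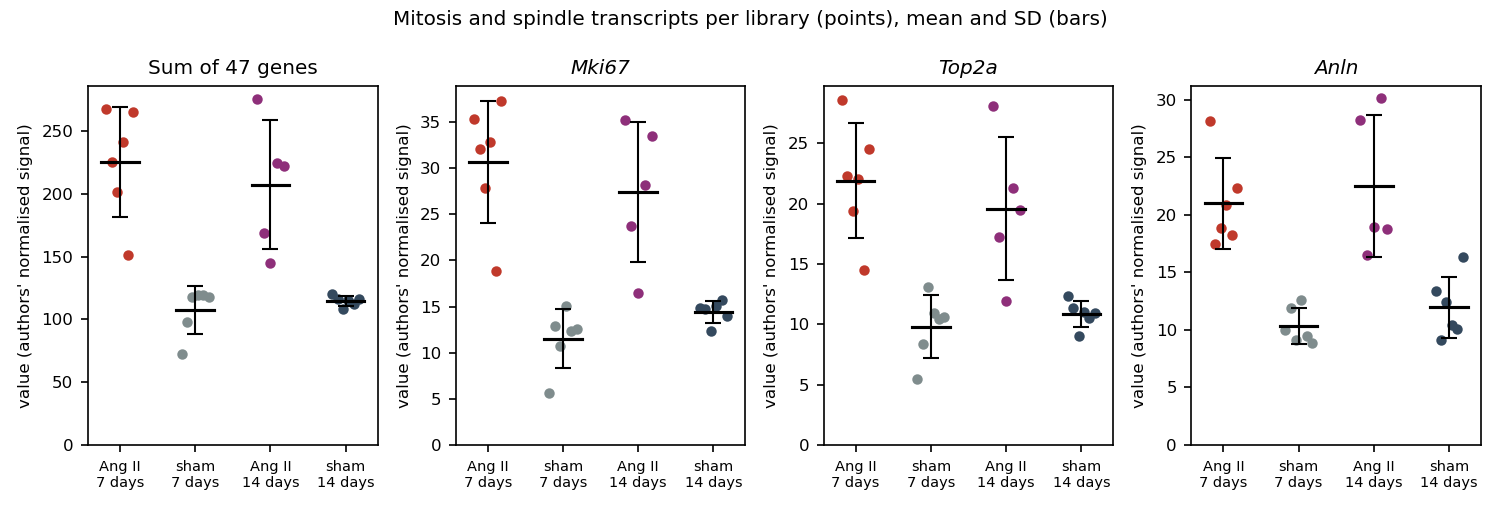
Authors' normalised signal per library (points), with the mean (line) and SD (bar) of each group, for the sum of the 47 genes and for Mki67, Top2a and Anln. In all 4 panels every Ang II library at 7 days lies above every 7-day sham library, and at 14 days only Top2a has an Ang II library (replicate 3) below the highest sham library.

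Of the 47 genes 45 were tested at each time. Because the genes were chosen with earlier results of these data known, their counts are a description. The shares of all genes are given for scale and make no independent test. At 7 days 19 rose and 0 fell, where 0.752% of all genes tested were called higher and 0.0671% lower. All 45 fold changes were positive, as were 50.4% of those of all genes, although that of Spc25 turned negative in edgeR and DESeq2. At 14 days 15 rose and 0 fell, where 4.04% of all genes tested were called higher and 2.01% lower, and 44 of 45 fold changes were positive, as were 55.0% of all. No member was called lower at either time by edgeR or DESeq2, and none had a negative fold change at an unadjusted p under 0.05. Leaving out sham replicate 3, Ang II replicate 4 or Ang II replicate 5 lowered the 14-day count to 9, and with the series of animal numbers as a term it was 0. The median log2 fold change was 0.98 at 7 days and 0.70 at 14 days, against 0.0017 and 0.034 over all genes tested. An unadjusted p under 0.05 was reached by 42 of the 45 at 7 days, against 9.28% of all genes tested, and by 35 of 45 at 14 days, against 24.6%. Each Ang II library exceeded each sham library for 12 of the tested genes at 7 days, against 1.08% of all, and for 14 at 14 days, against 2.36%. With limma, both times called 12 of the genes, 7 days alone 7, 14 days alone 3 and neither 23. This split varied with the tool. Of those called by limma at 7 days alone, edgeR and DESeq2 called Kif11, Kif2c, Ckap2 and Hmmr at 14 days too, and DESeq2 Knstrn. Of those called by limma at 14 days alone, DESeq2 called Racgap1 at 7 days too. Iqgap3, called by limma at both times, was not called by edgeR at 7 days. The mean was higher in Ang II arteries at both times for 46 of the 47, the exception being the kinetochore subunit gene Spc25.

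**Figure D3:**
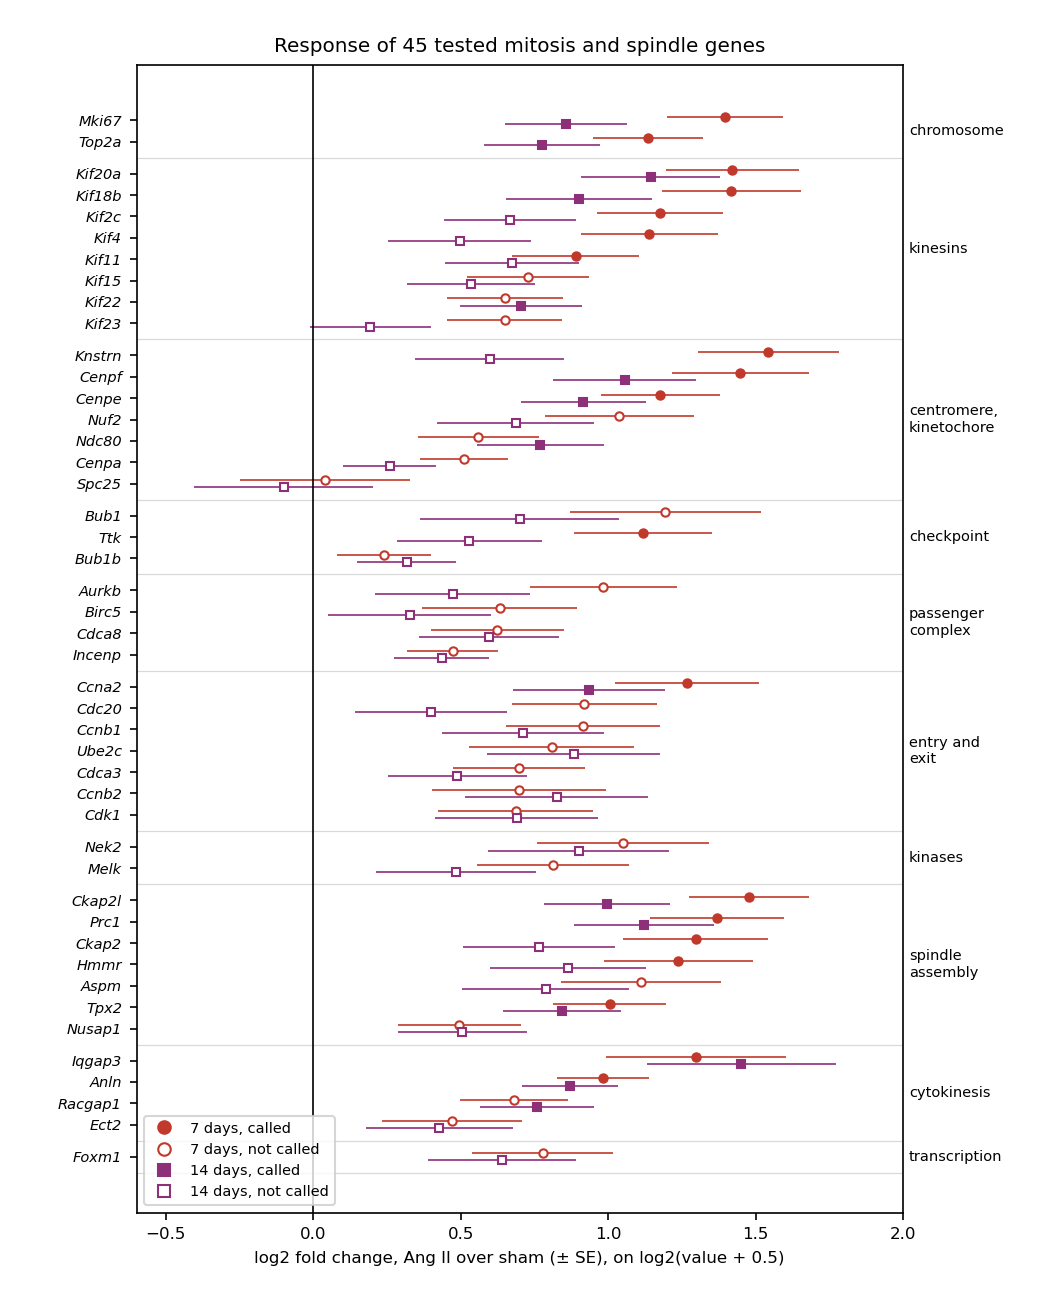
The log2 fold change of Ang II over sham (± SE) of the 45 tested genes at 7 days (circles) and 14 days (squares), grouped by role, with filled symbols for genes called. All 45 circles (that of Spc25 turned negative in edgeR and DESeq2) and 44 of the 45 squares lie right of 0, and the spread of the circles runs from 0.04 to 1.54.

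For each gene below, the values of a group of 6 libraries are its lowest, median and highest, and those of the 5 Ang II libraries at 14 days are all given, in the order of replicates 1 to 5. The pair of genes that mark chromosomes in dividing cells both rose at both times. Mki67 (chr7:135689784-135716361, minus strand) encodes Ki-67, the coat protein of mitotic chromosomes used to count cycling cells. It was at 18.8, 32.4 and 37.3 in Ang II arteries, against 5.63, 12.5 and 15.1 in sham arteries at 7 days. After 14 days it was at 35.2, 23.8, 16.5, 28.2 and 33.5 in Ang II arteries, against 12.3, 14.8 and 15.7 in sham arteries. The groups did not overlap at either time, and replicate 5 at 7 days and replicate 3 at 14 days were the lowest Ang II libraries. The log2 fold changes were 1.40 ± 0.20 (SE; limma adjusted p = 5.2e-04) and 0.86 ± 0.21 (adjusted p = 0.018). Top2a (chr11:98992943-99024189, minus strand) encodes topoisomerase II alpha, which untangles sister chromatids. It was at 14.5, 22.2 and 28.6 in Ang II arteries, against 5.45, 10.5 and 13.1 in sham arteries at 7 days, and the groups did not overlap. At 14 days its values were 28.1, 17.2, 11.9, 21.3 and 19.4 in Ang II arteries, against 9.03, 10.96 and 12.3 in sham arteries, and replicate 3 alone fell within the sham range. Its log2 fold changes were 1.13 ± 0.19 (limma adjusted p = 0.0020) and 0.78 ± 0.20 (adjusted p = 0.022). Per kilobase of exon, Mki67 had the highest mean level of the 47 genes in Ang II arteries at both times, at 3.05 and 2.73, followed by Top2a (2.43) at 7 days and Anln (2.49) at 14 days.

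Kinesins are motors that walk on microtubules or take them apart. Of the 8 kinesin genes, 5 rose at 7 days and 3 at 14 days, with median log2 fold changes of 1.02 and 0.67. Kif20a encodes the motor that carries passenger proteins to the midzone for cytokinesis. It was at 3.67, 4.72 and 7.07 in Ang II arteries, against 0.739, 1.34 and 3.26 in sham arteries at 7 days. At 14 days it was at 4.85, 2.71, 2.76, 4.06 and 3.49 in Ang II arteries, against 1.02, 1.27 and 1.75 in sham arteries. No library overlapped at either time, and the log2 fold changes were 1.42 ± 0.22 (limma adjusted p = 0.0014) and 1.14 ± 0.24 (adjusted p = 0.0074). Exons of Kif20a share 29.3% of their length with Cdc23 on the other strand, whose own mean value was 34.3 and whose log2 fold changes were -0.04 and 0.05.

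Kif18b, a microtubule-depolymerising motor at plus ends, was at 1.26, 1.43 and 2.46 in Ang II arteries, against 0, 0.234 and 0.739 in sham arteries at 7 days. Its values at 14 days were 1.56, 0.516, 0.853, 1.11 and 1.801 in Ang II arteries, against 0.179, 0.383 and 0.511 in sham arteries. The groups did not overlap at either time, although these are low values. Before any correction for depth, all 6 Ang II libraries at 7 days held 138 reads and the 6 sham libraries 19. Kif18b rose by a log2 of 1.42 ± 0.24 (limma adjusted p = 0.0020) and 0.90 ± 0.25 (adjusted p = 0.032). Kif2c encodes the depolymerase MCAK, which corrects wrong attachments. It was at 1.18, 1.64 and 2.19 in Ang II arteries, against 0.186, 0.458 and 0.804 in sham arteries at 7 days, without overlap, and rose by 1.18 ± 0.21 (limma adjusted p = 0.0047). At 14 days Kif2c was at 2.397, 0.773, 0.552, 1.34 and 1.84 in Ang II arteries, against 0.487, 0.576 and 0.833 in sham arteries. It was not called there by limma (0.67 ± 0.22, limma adjusted p = 0.073), whereas edgeR and DESeq2 called it.

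Kif4, a chromosome-bound motor (chromokinesin), was at 1.38, 3.02 and 3.84 in Ang II arteries, against 0.326, 1.101 and 1.67 in sham arteries at 7 days. At 7 days 5 of the 6 Ang II libraries were above the highest sham library, and Kif4 rose by 1.14 ± 0.23 (limma adjusted p = 0.013). At 14 days it was at 3.13, 1.68, 1.56, 2.72 and 3.15 in Ang II arteries, against 1.19, 1.47 and 2.19 in sham arteries, and was not called (0.50 ± 0.24, limma adjusted p = 0.21). Exons of Kif4 share 15.1% of their length with Pdzd11 on the other strand, whose own mean value was 13.4 and whose log2 fold changes were 0.05 and -0.22. Kif11 encodes Eg5, which pushes the spindle poles apart. Its values at 7 days were 3.79, 7.02 and 7.95 in Ang II arteries, against 2.05, 3.12 and 5.86 in sham arteries, with replicate 5 the Ang II library within the sham range, and it rose by 0.89 ± 0.22 (limma adjusted p = 0.047). At 14 days Kif11 was at 9.07, 5.29, 4.52, 6.78 and 7.47 in Ang II arteries, against 2.897, 3.85 and 4.75 in sham arteries (0.67 ± 0.23, limma adjusted p = 0.071). Kif22, the chromokinesin Kid, was called at 14 days, with 2.29, 1.29, 1.21, 2.08 and 1.69 in Ang II arteries, against 0.568, 0.792 and 1.34 in sham arteries and a log2 fold change of 0.70 ± 0.21 (limma adjusted p = 0.044). At 7 days Kif22 was at 1.25, 1.76 and 2.52 in Ang II arteries, against 0.558, 0.794 and 1.63 in sham arteries (0.65 ± 0.20, limma adjusted p = 0.15). Kif15, which backs up Eg5, was called at neither time, although its 7-day groups did not overlap, at 2.07, 2.28 and 2.52 in Ang II arteries against 0.558, 1.15 and 1.97 in sham arteries. Kif23, the motor of the centralspindlin complex, had log2 fold changes of 0.65 at 7 days and 0.19 at 14 days, where it was among the 3 smallest and turned to -0.07 with the animal number series in the fit.

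Of 7 centromere and kinetochore genes, 3 rose at 7 days and 3 at 14 days. Cenpf encodes a large protein of the outer kinetochore. It was at 4.59, 6.58 and 7.999 in Ang II arteries, against 1.06, 1.8 and 4.68 in sham arteries at 7 days, where 5 of 6 Ang II libraries were above the highest sham library. At 14 days its values were 6.77, 3.61, 5.02, 7.102 and 7.13 in Ang II arteries, against 2.05, 2.495 and 3.04 in sham arteries, without overlap. Cenpf rose by 1.45 ± 0.23 (limma adjusted p = 0.0015) and 1.06 ± 0.24 (adjusted p = 0.013). Cenpe, the kinesin that moves chromosomes to the spindle equator, was at 1.61, 4.31 and 5.11 in Ang II arteries, against 0.893, 1.25 and 2.05 in sham arteries at 7 days. At 14 days the Ang II libraries held 4.38, 3.31, 3.46, 3.64 and 3.45, against 1.34, 1.61 and 2.33 in sham libraries, without overlap. Replicate 5 was the 7-day Ang II library within the sham range, and Cenpe rose by 1.18 ± 0.20 (limma adjusted p = 0.0026) and 0.92 ± 0.21 (adjusted p = 0.014).

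Knstrn encodes astrin's partner kinastrin, and had the largest fold change of the 45 at 7 days. It was at 2.37, 2.72 and 3.51 in Ang II arteries, against 0, 0.7296 and 1.27 in sham arteries, without overlap, a log2 fold change of 1.54 ± 0.24 (limma adjusted p = 0.0013). At 14 days Knstrn was at 4.53, 2.41, 1.91, 2.63 and 3.303 in Ang II arteries, against 1.35, 1.74 and 2.17 in sham arteries. It was not called there by limma (0.60 ± 0.25, limma adjusted p = 0.14) or edgeR, whereas DESeq2 called it. Ndc80, the microtubule-binding subunit of the NDC80 complex, showed the reverse order of limma calls. Its values at 14 days were 1.82, 1.12, 1.61, 1.29 and 1.201 in Ang II arteries, against 0.454, 0.5202 and 0.917 in sham arteries, without overlap (0.77 ± 0.22, limma adjusted p = 0.035). At 7 days Ndc80 was at 0.751, 1.24 and 2.14 in Ang II arteries, against 0.265, 0.741 and 1.13 in sham arteries (0.56 ± 0.21, limma adjusted p = 0.30). Nuf2, its partner subunit, had log2 fold changes of 1.04 and 0.69 and was called at both times by DESeq2 and at neither by limma or edgeR, at a limma adjusted p of 0.050 at 7 days. Spc25, another subunit of the same complex, did not follow the others. Its values were 3.29, 5.49 and 7.86 in Ang II arteries, against 2.95, 4.91 and 11.3 in sham arteries at 7 days, and 3.86, 4.73, 2.36, 3.46 and 3.79 in Ang II arteries, against 2.25, 3.13 and 8.43 in sham arteries at 14 days. The highest library of each time was a sham library (replicate 3 at both), and the log2 fold changes were 0.04 ± 0.29 and -0.10 ± 0.30 (limma adjusted p = 0.99 and 0.86). These were the smallest of the 45 at each time, and their sign turned at 7 days in edgeR (-0.05) and DESeq2 (-0.06) and at 14 days under scaling to reads outside acinar genes (0.01). Cenpa, the centromeric histone, had log2 fold changes of 0.51 at 7 days and 0.26 at 14 days, where it was among the 3 smallest.

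**Figure D4:**
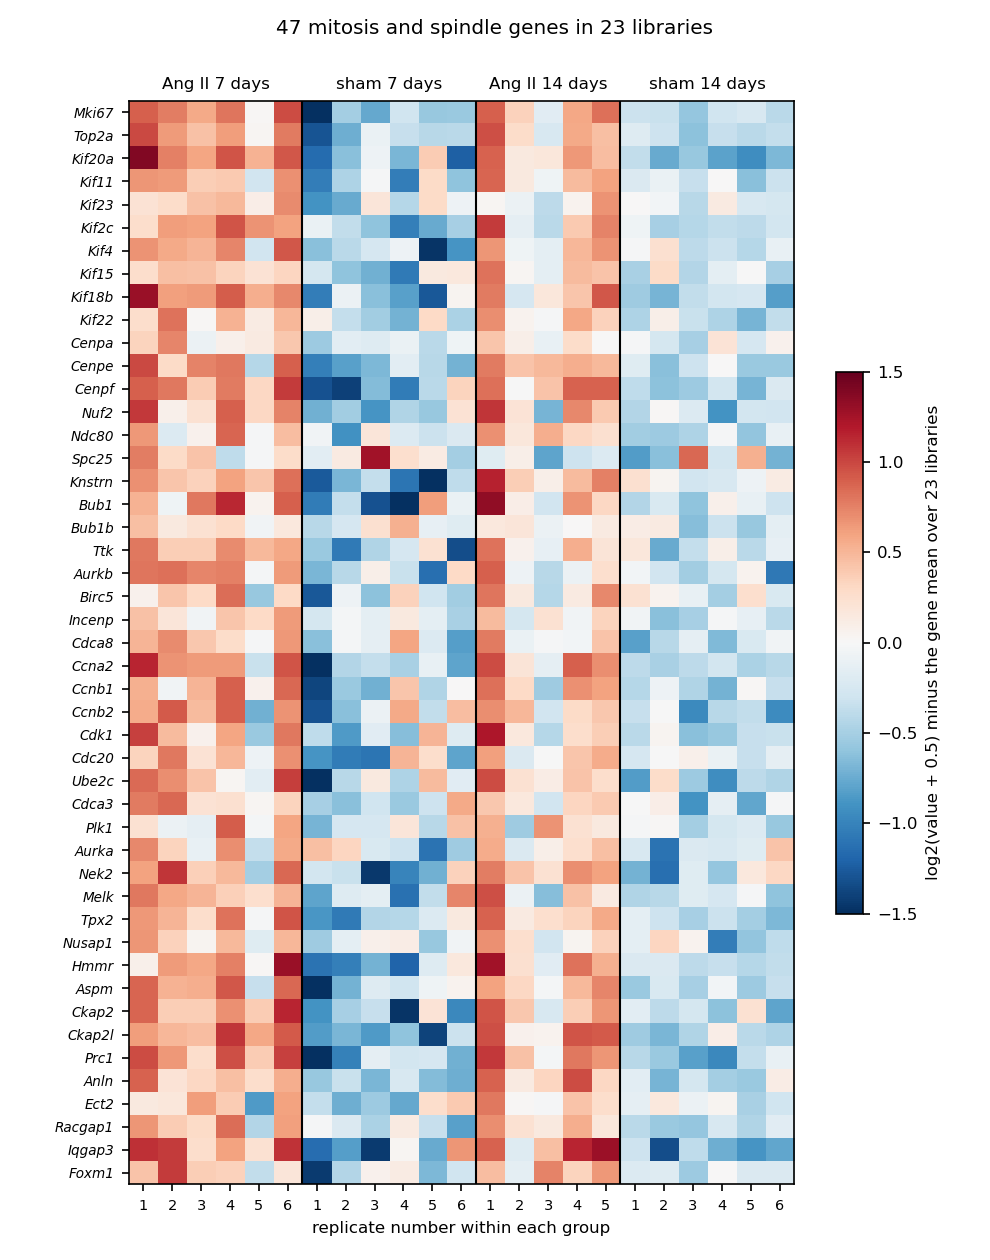
Values of the 47 genes in the 23 libraries as log2(value + 0.5) minus the gene's mean over all libraries, with colours ending at 1.5 in both directions. Rows are genes in order of role and columns are libraries, and the Ang II blocks are mostly red and the sham blocks mostly blue, with replicate 5 of Ang II at 7 days and replicate 3 of Ang II at 14 days paler than the rest of their groups.

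The spindle checkpoint holds anaphase until every kinetochore is attached. Of its 3 kinase genes Ttk, which encodes the kinase MPS1, rose at 7 days. It was at 1.12, 1.33 and 1.67 in Ang II arteries, against 0, 0.39 and 0.977 in sham arteries, without overlap (1.12 ± 0.23, limma adjusted p = 0.017), on 118 reads in Ang II libraries and 15 in sham libraries. At 14 days Ttk was at 1.72, 0.816, 0.653, 1.34 and 0.938 in Ang II arteries, against 0.244, 0.571 and 0.917 in sham arteries (0.53 ± 0.25, limma adjusted p = 0.18). Bub1, whose 7-day fold change of 1.19 was larger than that of Ttk, had a larger error (SE 0.32). It was not called by limma (limma adjusted p = 0.088) or edgeR, whereas DESeq2 called it at 7 days. Bub1b, which encodes BUBR1, had log2 fold changes of 0.24 at 7 days, among the 3 smallest, and 0.32 at 14 days.

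The chromosomal passenger complex corrects attachments and then directs cytokinesis. None of its 4 genes was called by limma or edgeR at either time, and DESeq2 called 1 at 7 days and 0 at 14 days. An unadjusted limma p under 0.05 was reached by all 4 at 7 days, against 9.28% of all genes tested. At 14 days 2 reached it, against 24.6% of all. Aurkb, the kinase of the complex, was at 1.26, 2.53 and 2.68 in Ang II arteries, against 0.326, 0.889 and 1.72 in sham arteries at 7 days. At 14 days Aurkb was at 2.87, 1.203, 0.853, 1.199 and 1.65 in Ang II arteries, against 0.358, 0.987 and 1.36 in sham arteries. Its log2 fold changes were 0.98 ± 0.25 and 0.47 ± 0.26 (limma adjusted p = 0.063 and 0.27), and at 7 days replicate 5 was the Ang II library within the sham range. Birc5 encodes survivin, which targets the complex to centromeres. It was at 0.459, 1.25 and 2.03 in Ang II arteries, against 0.0893, 0.572 and 1.301 in sham arteries at 7 days, and at 1.98, 1.07, 0.552, 1.06 and 1.84 in Ang II arteries, against 0.4999, 0.893 and 1.19 in sham arteries at 14 days. The groups overlapped at both times, with log2 fold changes of 0.63 ± 0.26 and 0.33 ± 0.28 (limma adjusted p = 0.41 and 0.48). Incenp and Cdca8, the scaffold and the borealin subunit, had fold changes of 0.47 and 0.62 at 7 days and 0.44 and 0.60 at 14 days.

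Of 7 genes of mitotic entry and exit limma called Ccna2, at both times. Ccna2 encodes cyclin A2, which acts in S phase and G2. It was at 3.56, 7.62 and 10.8 in Ang II arteries, against 1.07, 3.22 and 4.24 in sham arteries at 7 days, where 5 of 6 Ang II libraries were above the highest sham library. At 14 days it was at 9.64, 5.37, 4.17, 9.09 and 7.84 in Ang II arteries, against 3.17, 3.37 and 3.75 in sham arteries, without overlap. Ccna2 rose by 1.27 ± 0.24 (limma adjusted p = 0.0085) and 0.93 ± 0.26 (adjusted p = 0.032). The gene shares 12.5% of its exon length with Exosc9 on the other strand, whose log2 fold changes were -0.08 and -0.21.

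Cdk1, the kinase that drives entry into mitosis, was at 1.61, 3.99 and 5.795 in Ang II arteries, against 1.22, 2.05 and 3.91 in sham arteries at 7 days. At 14 days Cdk1 was at 6.67, 2.97, 1.81, 3.23 and 3.49 in Ang II arteries, against 1.51, 1.88 and 2.68 in sham arteries. Its groups overlapped at both times, and its log2 fold changes of 0.69 ± 0.26 and 0.69 ± 0.28 were not called (limma adjusted p = 0.35 and 0.12). Ccnb1, its cyclin B1 partner, was at 1.88, 3.02 and 4.07 in Ang II arteries, against 0.446, 1.24 and 2.79 in sham arteries at 7 days. At 14 days Ccnb1 was at 3.86, 2.54, 1.21, 3.46 and 3.23 in Ang II arteries, against 0.9998, 1.38 and 1.99 in sham arteries. Here too the groups overlapped, with log2 fold changes of 0.92 ± 0.26 and 0.71 ± 0.27 (limma adjusted p = 0.11 and 0.11). The remaining genes of the group were positive without a call in limma: Ccnb2 (0.70 and 0.83), the anaphase-promoting complex activator Cdc20 (0.92 and 0.40), its ubiquitin-conjugating partner Ube2c (0.81 and 0.88) and Cdca3 (0.70 and 0.49), with the 7-day log2 fold change given before that of 14 days. DESeq2 called Cdc20 at 7 days and Ccnb2, Ube2c, Cdk1 and Ccnb1 at 14 days. Ube2c exons share 22.8% of their length with Tnnc2 on the other strand, whose mean value was 0.0982.

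Of 4 mitotic kinase genes, Plk1 and Aurka were too low to be tested, with a value of 1 or more in 4 of 23 libraries each. Plk1 encodes the polo-like kinase that acts at centrosomes, kinetochores and the midbody. It was at 0.499, 0.6798 and 1.56 in Ang II arteries, against 0.179, 0.424 and 0.985 in sham arteries at 7 days, and at 1.09, 0.258, 1.26, 0.784 and 0.713 in Ang II arteries, against 0.239, 0.436 and 0.609 in sham arteries at 14 days. These stand for 82 and 22 reads in all at 7 days and for 88 and 34 reads at 14 days, Ang II before sham. Aurka, the centrosomal Aurora kinase, had a mean of 0.89 ± 0.395 in Ang II arteries and 0.479 ± 0.371 in sham arteries at 7 days (SD, n = 6 each). Nek2 and Melk were tested and not called by limma or edgeR, whereas DESeq2 called Nek2 at 7 days, with log2 fold changes of 1.05 and 0.81 at 7 days and 0.90 and 0.48 at 14 days.

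Of 7 spindle assembly genes 5 rose at 7 days and 3 at 14 days. All 7 reached an unadjusted p under 0.05 at both times, against 9.28% and 24.6% of all genes tested. Prc1 bundles the antiparallel microtubules of the central spindle. It was at 5.37, 8.08 and 9.39 in Ang II arteries, against 1.16, 2.998 and 3.95 in sham arteries at 7 days. The 14-day values were 9.64, 6.101, 4.27, 7.93 and 7.21 in Ang II arteries, against 2.0, 2.98 and 3.99 in sham arteries. The groups did not overlap at either time, and Prc1 rose by 1.37 ± 0.23 (limma adjusted p = 0.0020) and 1.12 ± 0.24 (adjusted p = 0.0084). Prc1 shares 11.1% of its exon length with Rccd1 on the other strand, whose log2 fold changes were -0.20 and -0.10. Ckap2l, which encodes the spindle pole protein radmis, had the smallest adjusted p of the 45 at 7 days. It was at 2.497, 2.801 and 4.07 in Ang II arteries, against 0.326, 0.781 and 1.23 in sham arteries, without overlap. At 14 days the values were 3.75, 1.76, 1.76, 3.69 and 3.603 in Ang II arteries, against 0.853, 1.08 and 1.83 in sham arteries, and sham replicate 4 stood above 2 of the 5 Ang II libraries. The log2 fold changes of Ckap2l were 1.48 ± 0.20 (limma adjusted p = 3.8e-04) and 1.00 ± 0.21 (adjusted p = 0.0091).

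Tpx2, which activates Aurora A and nucleates spindle microtubules, was at 4.13, 6.52 and 8.51 in Ang II arteries, against 1.75, 2.97 and 4.68 in sham arteries at 7 days. After 14 days it was at 8.18, 4.64, 5.07, 5.396 and 6.46 in Ang II arteries, against 2.44, 3.03 and 3.75 in sham arteries. The 14-day groups did not overlap, and Tpx2 rose by 1.01 ± 0.19 (limma adjusted p = 0.0072) and 0.84 ± 0.20 (adjusted p = 0.016). Ckap2, a microtubule-stabilising protein of the spindle, was at 2.62, 3.01 and 4.86 in Ang II arteries, against 0.372, 1.01 and 2.28 in sham arteries at 7 days, without overlap (1.30 ± 0.25, limma adjusted p = 0.0070). At 14 days Ckap2 was at 4.17, 2.71, 1.56, 2.63 and 3.34 in Ang II arteries, against 0.894, 1.43 and 2.33 in sham arteries (0.76 ± 0.26, limma adjusted p = 0.072). Hmmr encodes RHAMM, a spindle pole protein that also binds hyaluronan. It was at 1.95, 3.196 and 5.46 in Ang II arteries, against 0.558, 0.838 and 2.22 in sham arteries at 7 days, where 4 of 6 Ang II libraries were above the highest sham library (1.24 ± 0.25, limma adjusted p = 0.013). At 14 days Hmmr was at 5.31, 2.36, 1.66, 3.78 and 3.002 in Ang II arteries, against 1.31, 1.39 and 1.58 in sham arteries, without overlap. It was not called there by limma (0.86 ± 0.26, limma adjusted p = 0.052), whereas edgeR and DESeq2 called it. Aspm, which focuses spindle poles, and Nusap1, which binds microtubules near chromosomes, were called at neither time by limma, whereas Aspm was called at both by edgeR and DESeq2, with log2 fold changes of 1.11 and 0.49 at 7 days and 0.79 and 0.51 at 14 days.

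Of 4 cytokinesis genes 3 rose at 14 days and 2 at 7 days. Anln (chr9:22332012-22389188, minus strand) encodes anillin, the scaffold of the cleavage furrow. It was at 17.5, 19.9 and 28.2 in Ang II arteries, against 8.86, 9.72 and 12.6 in sham arteries at 7 days. At 14 days it was at 28.2, 16.5, 18.98, 30.1 and 18.8 in Ang II arteries, against 9.14, 11.4 and 16.3 in sham arteries. The groups did not overlap at either time, and Anln rose by 0.98 ± 0.16 (limma adjusted p = 0.0014) and 0.87 ± 0.16, with the smallest 14-day adjusted p of the 45 (0.0040). Iqgap3, a GTPase-binding scaffold of dividing cells, had the largest fold change at 14 days. Its values there were 4.12, 1.68, 2.91, 4.98 and 5.55 in Ang II arteries, against 0.487, 0.977 and 1.5 in sham arteries, without overlap (1.45 ± 0.32, limma adjusted p = 0.011). At 7 days Iqgap3 was at 2.41, 3.98 and 4.81 in Ang II arteries, against 0.423, 0.939 and 3.45 in sham arteries, where sham replicate 6 stood above 3 of the 6 Ang II libraries (1.30 ± 0.31, limma adjusted p = 0.039). Racgap1, the partner of Kif23 in centralspindlin, was at 7.92, 5.59, 5.27, 7.06 and 5.37 in Ang II arteries, against 2.97, 3.36 and 4.11 in sham arteries at 14 days, without overlap (0.76 ± 0.19, limma adjusted p = 0.022). At 7 days Racgap1 was at 3.33, 6.86 and 8.81 in Ang II arteries, against 2.46, 3.78 and 5.21 in sham arteries (0.68 ± 0.18, limma adjusted p = 0.087). Ect2, the exchange factor that switches on RhoA at the furrow, had log2 fold changes of 0.47 at 7 days, among the 3 smallest, and 0.43 at 14 days.

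Foxm1, the transcription factor of the G2 and M programme, was at 0.918, 1.85 and 3.27 in Ang II arteries, against 0.179, 0.917 and 1.49 in sham arteries at 7 days. At 14 days Foxm1 was at 2.03, 1.16, 2.56, 1.799 and 2.36 in Ang II arteries, against 0.757, 1.08 and 1.33 in sham arteries. In each comparison 1 Ang II library lay within the sham range, and the log2 fold changes of 0.78 ± 0.24 and 0.64 ± 0.25 were not called (limma adjusted p = 0.16 and 0.12).

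Within a group the same libraries tended to be high or low for many of the genes. Ang II replicate 5 at 7 days was the lowest of its group for 31 of the 47 genes. At 14 days Ang II replicate 1 was the highest of its group for 36 genes and replicate 3 the lowest for 33. Sham libraries at 14 days were close to each other, with a summed signal of 108 to 120, whereas the 14-day Ang II libraries ran from 145 to 276.

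No member was called between 14 and 7 days. The fold change was larger at 7 days for 36 of the 45 genes. However, the difference of the responses, 14 days minus 7 days, was called for 0 of them by limma, edgeR and DESeq2. Its median was -0.25, against 0.022 over all genes tested. An unadjusted p under 0.05 was reached by 1 gene there, against 9.37% of all genes tested, and limma called no gene of the whole table (0.0%), as did edgeR, whereas DESeq2 called 3 higher and 4 lower. That gene was Knstrn, at -0.94 ± 0.35 (SE; limma adjusted p = 0.51). It was followed by Kif4 (-0.64 ± 0.34) and Ttk (-0.59 ± 0.34), and at the other end stood Ndc80 (0.21 ± 0.30) and Iqgap3 (0.15 ± 0.44). Within Ang II arteries, 14 days against 7 days called 0 of the 45 by the same 3 tools, where 1.46% of all genes tested were called higher and 0.819% lower. An unadjusted p under 0.05 was reached there by 0 of the 45, against 18.1% of all genes tested, and the median was -0.13. The widest of these differences was that of Aurkb, at -0.51 ± 0.26 (limma adjusted p = 0.31). Within sham arteries 14 days against 7 days called 0 of the 45 by the same tools and 0 of all genes tested by limma (0.0%), with a median of 0.14 and an unadjusted p under 0.05 for 1 gene, against 7.57% of all. Knstrn was again that gene, with a difference of 0.96 ± 0.24 (limma adjusted p = 0.55). The comparisons between times use the same libraries as those of Ang II with sham. Of the 4 groups the 7-day sham libraries had the lowest median depth, at 7201545.5 reads.

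Other cell cycle genes were followed in separate lists, which were also chosen with earlier results of these data known. In 9 lists of 203 further genes, 187 of which were tested, limma called 5 higher at 7 days and 15 at 14 days, against 0.752% and 4.04% of all genes tested, and none lower at either time, while DESeq2 called 2 lower at 14 days, 1 of the condensin and cohesin list and 1 of the DNA replication list. The 14-day count was 1 within the compared groups alone and 0 with the series of animal numbers as a term. The median log2 fold changes over the 9 lists were 0.15 and 0.17. The list of other spindle, centrosome and cytokinesis genes came nearest, with 3 of 37 called at 7 days and 5 at 14 days and medians of 0.42 and 0.32. Called there were Cep55, which recruits the abscission machinery (1.39 ± 0.30 and 1.12 ± 0.32), and the mitotic kinase Pbk (1.16 ± 0.19 and 0.68 ± 0.20) at both times. The kinesin-14 gene Kifc1 was called at 7 days (0.89 ± 0.21), and Dlgap5, a spindle protein (0.86 ± 0.22), Pimreg (0.85 ± 0.23) and the centrosome scaffold Cep192 (0.32 ± 0.09) at 14 days. Among 29 other kinetochore genes Knl1, the checkpoint platform, was called at both times (1.03 ± 0.21 and 0.81 ± 0.22), and Cenpi (0.77 ± 0.23) at 14 days. Of 19 condensin and cohesin genes Ncapd2 (0.55 ± 0.16) and Ncapg2 (0.44 ± 0.13) were called at 14 days. The 17 genes of the anaphase-promoting complex gave no call in limma, edgeR or DESeq2 at either time, with medians of -0.0014 and 0.046. An unadjusted p under 0.05 was reached by 0 and 2 of them, against 9.28% and 24.6% of all genes tested.

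Of 39 DNA replication genes Mcm6, a subunit of the replicative helicase, was called at both times (0.39 ± 0.09 and 0.38 ± 0.09), and the medians were 0.24 and 0.20. The 11 G1 cyclins and their kinases gave no call in limma or edgeR and 2 calls in DESeq2 at 14 days, with medians of 0.011 and 0.28. An unadjusted p under 0.05 was reached by 1 and 6 of them, against 9.28% and 24.6% of all genes tested. In the list of RB, E2F, MuvB and NF-Y genes, of which 21 were tested, E2f1 (0.76 ± 0.21), E2f2 (0.86 ± 0.23) and Rbl2 (0.25 ± 0.07) were called at 14 days and none at 7 days. Wee1, the kinase that restrains Cdk1, was called at 14 days (0.76 ± 0.20) and had 0.04 ± 0.19 at 7 days. Of 6 tested CDK inhibitors none was called by limma, edgeR or DESeq2 for Ang II against sham. At an unadjusted p under 0.05 there was 1 at 7 days and 0 at 14 days, against the same 9.28% and 24.6% of all genes tested. Cdkn1a, which encodes p21, was lower at 14 days than at 7 days within Ang II arteries, with a log2 difference of -1.5 ± 0.28 (limma adjusted p = 0.0090), and it differed by -0.85 ± 0.27 within sham arteries (adjusted p = 0.55). Within Ang II arteries it was the 1 gene of the 187 that limma called lower between the times, against 0.819% of all genes tested. In the same contrast 1 gene of the RB, E2F, MuvB and NF-Y list was called higher, against 1.46% of all.

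**Figure D5:**
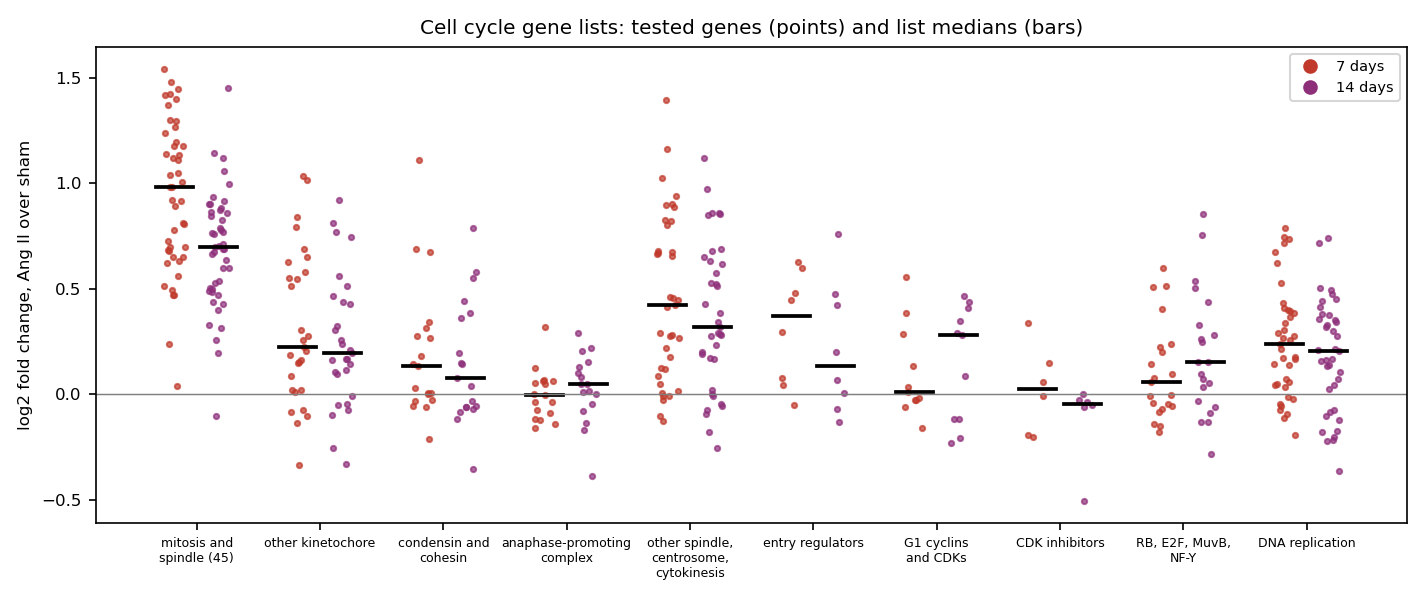
The log2 fold changes of Ang II over sham at 7 days and 14 days for the tested genes of each list (points), with the list medians (bars). The mitosis and spindle genes have medians of 0.98 and 0.70, and the highest median of another list is 0.42, at 7 days in the other spindle, centrosome and cytokinesis genes.

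Animal numbers in the table header fall into series by their first 2 digits, and the labels do not say whether these were batches. At 7 days the series 27 (3 Ang II and 4 sham libraries) gave a median log2 fold change of 1.10 over the 45 genes, with 45 positive, and the series 28 (3 and 2 libraries) gave 0.70, with 44 positive. At 14 days the series 26 (3 Ang II and 4 sham libraries) gave a median of 0.62, with 43 positive. The other 14-day libraries were 2 Ang II libraries of the series 30 and 1 sham library each of the series 27 and 28, so in these series and group cannot be told apart. With the series as a term in the fit, limma called 17 of the 45 genes at 7 days, where 78 genes of the whole table were called higher and 6 lower. At 14 days it called 0 of the 45, where 14 genes of the whole table were called higher and 2 lower.

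The levels of cell type markers are given beside these results. Endothelial markers summed to 878 to 1083 in Ang II arteries against 983 to 1344 in sham arteries at 7 days. Their sums at 14 days were 884 to 1088 against 967 to 1242. Smooth muscle markers summed to 5972 to 8539 in Ang II arteries against 4964 to 8192 in sham arteries at 7 days. Their sums at 14 days were 6294 to 8072 against 5129 to 6974. All 10 macrophage and monocyte markers were above 0 in every library, and their summed signal was 568.4 to 969 in Ang II arteries against 460 to 759 in sham arteries at 7 days, and 546 to 1326 against 462 to 687 at 14 days. The 8 fibroblast markers, all above 0 in every library, summed to 3761 to 5952 in Ang II arteries against 3315 to 3940 in sham arteries at 7 days, and to 3334 to 6194 against 3879 to 4918 at 14 days. Acinar markers, 10 of 10 above 0 throughout, summed to 47297 to 126739.5 in Ang II arteries against 94061 to 188699 in sham arteries at 7 days, and to 43357 to 82371 against 71215 to 146869 at 14 days. Over all libraries 8 T cell markers summed to 4.29 to 18.96 and 8 B cell and germinal centre markers to 17.8 to 36.2, of which Bcl6 alone made up 14.7 to 31.1. The 8 neutrophil markers summed to 1.19 to 27.6, with S100a8, S100a9 and Retnlg above 0 in every library and Ly6g at 0 in 22 of 23. Lymphatic endothelial markers summed to 217 to 289, gut epithelium to 54.0 to 242, adipocyte to 296 to 1470 and mesothelial to 12.6 to 36.8. Erythroid markers summed to 2344 to 5599 in Ang II arteries against 1464 to 6526 in sham arteries at 7 days. Erythroid sums at 14 days were 2339 to 3840 against 798 to 3737. AY036118, a single row of the table, took 0.0788% to 13.2% of the reads in Ang II arteries against 0.113% to 36.2% in sham arteries at 7 days, and 0.0431% to 0.934% against 0.799% to 9.35% at 14 days. The 14-day Ang II library with the highest sum of mitosis genes, replicate 1, also had the highest macrophage and fibroblast sums. The 14-day Ang II library with the lowest mitosis sum, replicate 3 (145), had the lowest fibroblast sum (3334) but not the lowest macrophage sum. The lowest at 7 days, replicate 5 (151), had the lowest macrophage sum (568.4) but not the lowest fibroblast sum. The highest at 7 days, replicate 1, had the highest sum of neither. The Ang II libraries with a macrophage sum within the sham range of their time were replicates 3, 5 and 6 at 7 days (643, 568.4 and 745). At 14 days they were replicates 3 and 5 (601 and 546). The part of these cells and of AY036118 in the results was not tested.

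The count of calls at 14 days depended on the scaling. Under a scaling to the reads outside acinar genes and AY036118, the median of all genes tested at 14 days was 0.16, against 0.034, and 28 of the 45 genes were called higher. The whole table then gave 2108 genes higher and 203 lower, against 602 and 300 as reported and 406 and 465 under upper-quartile scaling.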

How the data were processed

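Total RNA (500 ng per library, stranded TruSeq kit) was sequenced, per the labels' protocols. The submitters' processing notes name STAR 2.3.1, HTSeq 0.5.3p3 and edgeR 3.6.8, beside bcl2fastq 1.8.4, FastQC and R 3.2.3, with mm10 as the build. Annotation, strand setting and normalization: not given in the sources used here. The authors deposited a normalised signal per gene and library; 100% of the 460324 values above 0 were whole multiples of the library's smallest value, within 0.001 read, which gave whole reads for edgeR 4.0.16 and DESeq2 1.42.0 as alternatives.

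The main test was limma 3.58.1 (R 4.3.3; trended, robust) on log2(value + 0.5), with 4 group means over 23 libraries and genes with a value of 1 or more in at least 5 libraries, which left 14896 genes. Within a contrast, p-values were adjusted over all of these genes (Benjamini-Hochberg). The script was tested on simulated data.

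The 47 genes and all lists were chosen with earlier results of these data known. Genes given by library were Mki67, Top2a, Cdk1, Ccnb1, Foxm1, Birc5, Aurkb, Plk1 and those called at either time. Those given by fold change were the 3 largest and 3 smallest per time and every listed gene called, except that some results are not reported here; other members and Kif15 are given beside them so that all 47 are accounted for. Coordinates and exon lengths are from GENCODE M21 on GRCm38, promoters from RefSeq on GRCm38.p6. Alternatives were other pseudocounts (0.1 and 1), filters and scalings, edgeR, DESeq2, the compared groups alone, the animal number series as a term, and leaving out each library. Leaving out the 2 shallowest libraries was added after seeing the data.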

Additional observations from a re-analysis of the deposited data

Results flagged for a closer look

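In 7 of 192 groups of values examined, 1 library stood apart from the rest of its group by Dixon's ratio at its 95% critical value. Chance alone flags about 1 in 20 groups, or 9.6 of 192. Spc25 was at 11.28 in 7-day sham replicate 3, above the other sham libraries. At 7 days sham replicate 6, among the shallowest libraries, was high for Nuf2 (1.477), Cdca3 (2.216) and Melk (1.969). Among sham libraries at 14 days Ube2c was high in replicate 2 (2.193) and Ckap2l in replicate 4 (1.833). Aurkb was low in Ang II replicate 5 at 7 days (1.262), the library with the lowest sum of these genes in its group.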

How the results depend on the processing

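No paired analysis was possible because the labels give no replicate numbers that the groups share. The 7-day count of 19 genes called lay between 14 and 26 under the other settings, with 24 without the 2 shallowest libraries (7-day sham replicates 5 and 6), an alternative chosen after seeing the data, and from 16 to 25 with a library left out. In every fit with 1 library left out, 15 of the 19 genes called at 7 days and 8 of the 15 at 14 days were called again. The 14-day count of 15 was 28 under scaling to reads outside acinar genes and AY036118, 26 in DESeq2 and 0 with the animal number series as a term, and 9 to 20 with a library left out. For the pathway lists the 7-day count of 5 was 14 in DESeq2, 2 within the compared groups alone, 2 with the series term, 9 without the 2 shallowest libraries, and 1 to 9 with a library left out. The 14-day list count of 15 was 6 with no filter on low values, 8 under upper-quartile scaling, 47 under scaling outside acinar genes, 33 in DESeq2, 1 within the compared groups alone, 0 with the series term, and 3 to 25 with a library left out. The causes were not tested. Over the whole table the main fit called 112 genes higher and 10 lower at 7 days, and 602 and 300 at 14 days. DESeq2 called 173 and 39 at 7 days, and 1029 and 766 at 14 days. Scaling outside acinar genes gave 2108 and 203 at 14 days, and upper-quartile scaling 406 and 465. At 14 days the compared groups alone gave 258 and 85, and no filter on low values gave 410 and 163 of 26392 genes. The CHR core share of 81.4% was 65.1% on the gene strand alone. Signs turned for Spc25 at 7 days in edgeR (-0.053), in DESeq2 (-0.064) and without the 2 shallowest libraries (-0.15), with -0.10 to 0.25 when a library was left out, and at 14 days under scaling outside acinar genes (0.014), with -0.23 to 0.11 when a library was left out. Kif23 at 14 days turned with the series term (-0.068). Low depth limits the genes with few reads, above all in sham arteries at 7 days.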
